A study of Homo sapiens with 8 samples.

Results

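The genes described here are 53 human genes of mitosis, the step in which a cell separates its copied chromosomes. They code for the kinases and cyclins that start mitosis, the spindle, the kinetochores, condensin and the proteins of cytokinesis. They were chosen by symbol from a list of mitosis genes, and all 53 were found among the 25168 genes of the table. All 53 also passed the filter on low counts, which left 12843 genes. All RNA came from KG1a, a cell line grown from an acute myeloid leukemia and known for its immature, CD34-bearing state, so the data describe 1 line. Cells were kept for 48 h in DMSO as vehicle, in TAK-981 at 5 µM, in venetoclax at 1 µM, or in the 2 drugs combined at these doses ("both drugs" below), and each of these 4 groups held 2 libraries. TAK-981 blocks the activating enzyme for SUMO, a small modifier joined to many other proteins, and venetoclax blocks the anti-apoptotic protein BCL2. The series asks whether loss of SUMO attachment makes leukemia cells more sensitive to venetoclax.

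Mitosis begins when the kinase CDK1, bound to a B-type cyclin, becomes active. Chromosomes are then compacted by condensin and topoisomerase II, attached to spindle microtubules through kinetochores, and held back by the spindle assembly checkpoint until each is attached. The anaphase-promoting complex (APC/C) with CDC20 then releases separase and ends the activity of CDK1, and the cell divides. Most of these genes are transcribed late in the cell cycle. Their promoters are known for 2 elements, the cell cycle homology region (CHR), which is bound by the MuvB complexes with the transcription factors MYBL2 and FOXM1, and the CCAAT box, which is bound by NF-Y. Topoisomerase II alpha is itself known to carry SUMO. In RNA from a whole culture, fewer cells in mitosis and less mRNA per cell cannot be told apart.

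Promoter sequences were available for 46 of the 53 genes, from RefSeq on build GRCh38.p14, as windows of 300 bases around each transcription start. The letters TTTGAA or TTCGAA of the CHR, searched on both strands, were held by 35 of the 46 (76.1%), against 19.5% of 27305 genes with a window. CCAAT, also on both strands, was held by 35 (76.1%), against 39.7%. Both motifs were present in 27 (58.7%), against 7.85%. Of the E2F motifs TTTGGCGC and TTTCCCGC at least 1 was found in 3 (6.52%), against 2.75%. The CHR letters lay close to the start in most of these genes: the 100 bases from 50 before to 50 after it held them in 31 of 46 genes (67.4%), against 6.24% of all genes. The CCAAT letters lay farther out, with 28 of 46 (60.9%) in the 100 bases before that stretch, against 21.9%. Such a match is a description of letters and not a site shown to be bound. The 4 promoter stretches below, each of 150 bases outside annotated exons, show both kinds of letters in 3 genes that fell and in CDC20, which was called in no comparison. Capitals mark TTTGAA or TTCGAA and CCAAT, or their reverse complements TTCAAA and ATTGG, and no 2 matches overlap in these stretches.
TOP2A, chr17:40417951-40418100, minus strand: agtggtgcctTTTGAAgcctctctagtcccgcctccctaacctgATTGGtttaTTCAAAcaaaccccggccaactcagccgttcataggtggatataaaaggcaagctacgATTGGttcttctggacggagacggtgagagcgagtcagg
KIF11, chr10:92592980-92593129, plus strand: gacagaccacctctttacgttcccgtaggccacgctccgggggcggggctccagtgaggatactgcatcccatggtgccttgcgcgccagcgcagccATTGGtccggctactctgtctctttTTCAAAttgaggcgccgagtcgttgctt
ESPL1, chr12:53268149-53268298, plus strand: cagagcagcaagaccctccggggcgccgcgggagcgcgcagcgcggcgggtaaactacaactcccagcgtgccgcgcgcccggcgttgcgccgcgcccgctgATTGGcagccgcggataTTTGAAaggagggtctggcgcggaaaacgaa
CDC20, chr1:43358805-43358954, plus strand: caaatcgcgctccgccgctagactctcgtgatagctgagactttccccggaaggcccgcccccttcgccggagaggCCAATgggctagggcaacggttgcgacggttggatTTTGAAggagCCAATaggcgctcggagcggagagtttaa
The CHR letters began 28 bases before the start in KIF11, 31 in ESPL1 and 65 in CDC20, and 194 and 151 bases before it in TOP2A. CDC20 thus holds the same letters as the genes that fell.

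Total counts ran from 13204588 to 26304900 per library. The KG1a marker CD34 had 17241 to 30698 counts per library and the leukocyte gene PTPRC 5894 to 19115, while KIT, FLT3 and SPI1 stayed at or below 38. Of 15 markers of other cell types, 6 were at 0 in every library and 12 reached at most 4 counts. The exceptions were CD3D with 288 to 857 counts, CD3E with 88 to 365 and CD79A with 3 to 23. Some of these markers moved with the drugs against vehicle. CD3E fell with TAK-981 (-0.82, adjusted p = 0.0178) and with both drugs (-1.27, adjusted p = 0.00137). PTPRC fell with both drugs (-0.89, adjusted p = 0.00303), and CD79A rose with both drugs (1.99, adjusted p = 0.0353). CD34 rose with venetoclax (0.49, adjusted p = 0.0323). SPN, another KG1a marker with 10222 to 23930 counts, rose with TAK-981 (0.47, adjusted p = 0.0255) and with both drugs (0.41, adjusted p = 0.0224). Their part in the results was not tested. Whether the replicates were grown as separate cultures is not in the labels. P-values therefore reflect library-to-library spread alone, and that spread may be technical. The replicates of the venetoclax group stood farther apart than the others, with a median difference of 0.26 log2 units over 9858 genes of at least 5 CPM, against 0.10, 0.09 and 0.10 for vehicle, TAK-981 and both drugs. Of 7 RNAs that are nuclear or lack poly(A) tails, 6 rose with both drugs against vehicle and the nuclear RNA NEAT1 was not called. MALAT1, a nuclear noncoding RNA, in CPM (counts scaled to library size), stood at 3281 and 3074 CPM with vehicle, 6152 and 3496 with TAK-981, 5356 and 3755 with venetoclax and 11460 and 13520 with both drugs, and RN7SK, an RNA without a tail, at 2.91 and 3.29 CPM with vehicle, 8.81 and 5.72 with TAK-981, 10.4 and 9.12 with venetoclax and 56.7 and 91.4 with both drugs. The part of these RNAs in the results was not tested either.

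Levels of the 53 genes in vehicle-treated cells spanned 65-fold per length. TOP2A was highest, with 191 and 186 RPKM (reads scaled by gene length and library size) in the vehicle libraries, and the separase gene ESPL1 lowest, with 3.12 and 2.67. The median over the 53 was 26.7 RPKM. Partners of a complex were not at equal levels: the condensin genes SMC4 and SMC2 averaged 73.8 and 61.2 RPKM and NCAPG and NCAPH 40.3 and 34.6, while the NDC80 complex genes NDC80 and NUF2 averaged 26.04 and 23.9 and SPC24 and SPC25 16.8 and 16.6. The 53 genes together took 1.02% and 0.957% of all counts in the vehicle libraries, 0.731% and 0.63% with TAK-981, 1.36% and 1.1% with venetoclax, and 0.768% and 0.596% with both drugs. Both groups given TAK-981 lay below the vehicle libraries and both venetoclax libraries above them.

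**Figure D1:**
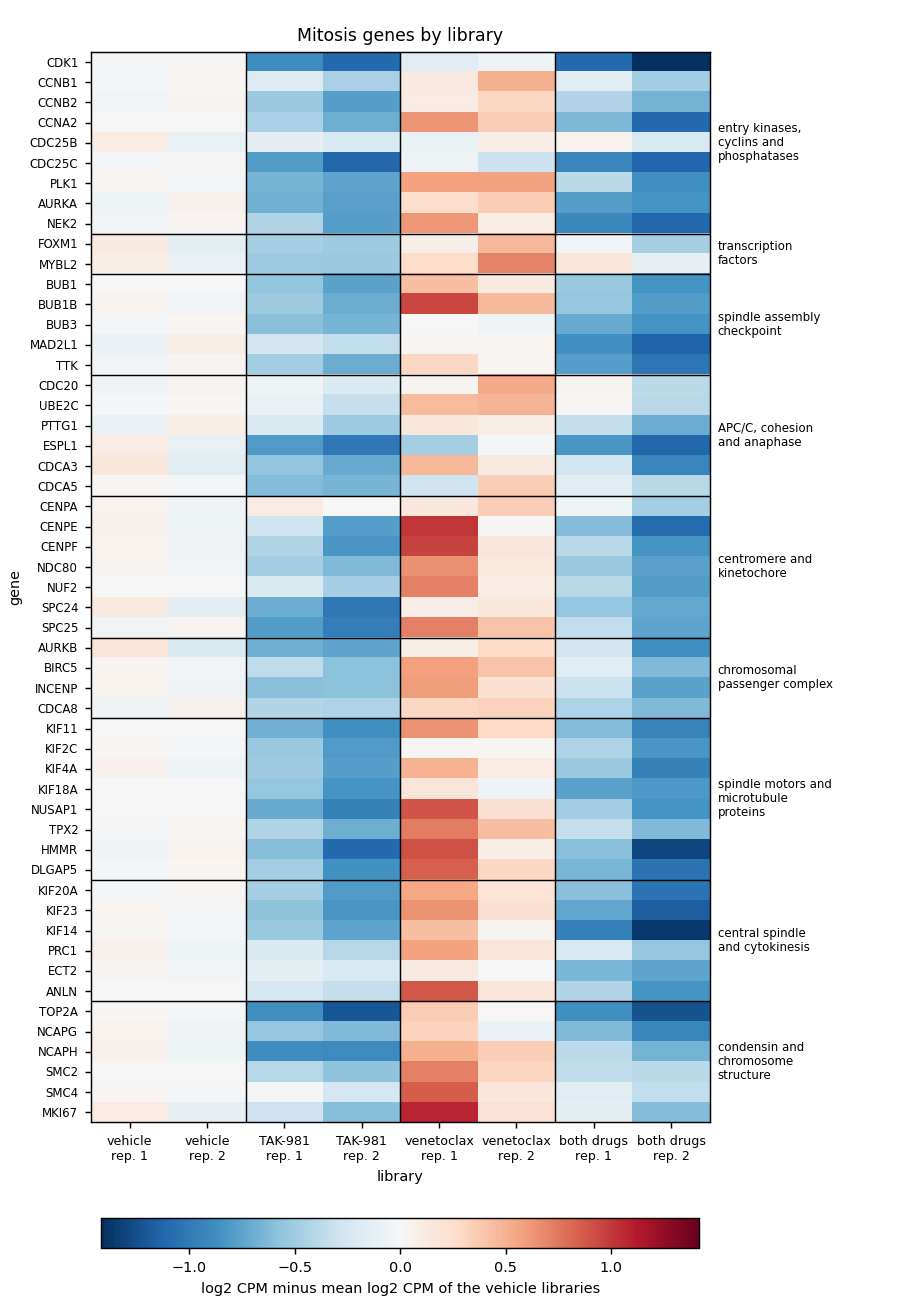
Heat map of the 53 mitosis genes (rows, grouped by role) in the 8 libraries (columns), colored by log2 CPM minus the mean of the vehicle libraries. TAK-981 libraries and those with both drugs are mostly blue (lower), with medians of -0.51, -0.71, -0.44 and -0.82, and venetoclax libraries mostly red, with medians of 0.45 and 0.18.

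The replicates of a treated group also differed across these genes in a common direction. With both drugs, replicate 2 was below replicate 1 for 53 of 53 genes, by a median of 0.34 log2 units, and with TAK-981 for 52 of 53, by 0.21. For all genes of at least 5 CPM that share was 49.5% and 50.6%. In the venetoclax group replicate 2 was lower for 35 of 53, against 50.7% of all genes of at least 5 CPM. In the vehicle group it was lower for 31 of 53, against 46.4%, with a median difference of 0.03 log2 units. The largest gap between replicates was that of CENPE, 1.00 log2 units in the venetoclax group. Most of the 53 genes still lay on the same side of vehicle in each library given TAK-981. In the TAK-981 libraries 52 and 52 of 53 genes lay below the vehicle mean, and 49 and 53 with both drugs. The share of all genes below the vehicle mean is not given here.

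TAK-981 alone lowered 27 of the 53 genes, and 0 rose. A gene counts as lowered or raised here when its adjusted p in the test over all 12843 genes was under 0.05. The background in that comparison was 6.18% of all genes called lower and 5.98% called higher. Those called fell by 25.6% to 51.1%. The median log2 fold change of the 53 was -0.60, against 0.00 over all genes. At an unadjusted p under 0.05, 41 were lower and 0 higher, against 13.6% of all genes lower at that threshold. DESeq2 called 36 lower and 0 higher, against 6.97% of all genes lower. Both TAK-981 libraries lay below both vehicle libraries for 51 of 53 genes, a pattern found in 32.9% of all genes. The count depended on the libraries: it was 4 when vehicle replicate 1 was dropped and 5 when vehicle replicate 2 was, 9 and 3 when TAK-981 replicate 1 or 2 was, and 46 with the 4 libraries of the 2 groups alone, where 16.4% of all genes were called lower. The 19 genes called lower in that smaller fit alone were ANLN, AURKB, BIRC5, CCNA2, CCNB1, CDCA3, CENPF, DLGAP5, FOXM1, HMMR, MAD2L1, MKI67, MYBL2, NDC80, NEK2, NUF2, PRC1, PTTG1 and SMC2. CDK1, AURKA and NCAPH kept their calls whichever of the 8 libraries was left out.

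Both drugs together lowered 34 of the 53 against vehicle, with 0 higher at the adjusted or unadjusted threshold and 0 by DESeq2 (background 15.1% lower and 12.8% higher). Both libraries lay below both vehicle libraries for 48 of 53, against 35.8% of all genes. Those called fell by 27.6% to 57.9%, and the median log2 fold change was -0.61. Of these 34, 26 were also lower with TAK-981 alone. The other 8 were CCNA2, NEK2, MAD2L1, PTTG1, NDC80, HMMR, DLGAP5 and ECT2, and CDCA5 was called lower with TAK-981 alone only. This split depended on the fit. With the vehicle and both-drug libraries alone 42 of 53 were lower, against 23% of all genes. The 8 added there were ANLN, CCNB1, CDCA5, CENPE, CENPF, NUF2, PRC1 and SMC2. With the vehicle and TAK-981 libraries alone, the 8 outside the 26 were all called lower with TAK-981 except ECT2. These comparisons share the vehicle libraries. The count was 16 or 18 when vehicle replicate 1 or 2 was dropped, and 11 when replicate 2 of both drugs was. AURKA, BUB3, CCNA2, CDC25C, CDK1, ECT2, KIF14, KIF18A, MAD2L1, TOP2A and TTK kept their calls without any 1 library.

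Venetoclax alone raised 8 of the 53, and 0 fell (0 at an unadjusted p under 0.05 and 0 by DESeq2). This share is close to the 11.4% of all genes called higher (9.44% were called lower), so the count alone does not set these genes apart. Their median log2 fold change was 0.33, against 0.00 over all genes, and 48 of 53 values were positive. Both venetoclax libraries lay above both vehicle libraries for 35 of 53, against 29.7% of all genes. The 8 calls were BUB1B, PLK1, TPX2, SMC2, NCAPH, SPC25, MYBL2 and BIRC5, with rises of 34.4% to 65.1%. All 8 were lost with the 4 libraries of the 2 groups alone, and the count was 0 without either vehicle library. Dropping TAK-981 replicate 1 or 2 gave 3 or 2, and dropping venetoclax replicate 1 or 2 gave 13 or 30.

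In venetoclax-treated cells, addition of TAK-981 lowered 50 of the 53 genes (background 22% lower and 17.6% higher), with a median log2 fold change of -0.94. CDC20, CDC25B and CDCA5 were not called. With the 4 libraries of these 2 groups alone 39 of 53 were lower, and 9.41% of all genes were called lower in that fit. In TAK-981-treated cells, addition of venetoclax changed 2 of the 53, MAD2L1 and ECT2, both lower (background 6.03% lower and 2.76% higher), and the median was -0.06. With the 4 libraries of these 2 groups alone, 8 were called: MAD2L1, ECT2, KIF14, NEK2 and TTK lower, and MYBL2, NCAPH and CDCA5 higher. In that fit 16.2% of all genes were called lower and 13.7% higher. Both libraries with both drugs lay below both TAK-981 libraries for 12 of 53 genes and above them for 6. These patterns were found in 31.6% and 33.8% of all genes.

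The test of whether the effect of TAK-981 differed with venetoclax present called 0 of the 53 genes, and 4 of all 12843 (0.0311%). At an unadjusted p under 0.05 it had 17 of the 53, all with a larger fall in the presence of venetoclax, against 11.6% of all genes with a lower value at that threshold. DESeq2 called MAD2L1 alone of the 53, and it called 1.19% of all genes lower and 1.14% higher, so this count does not set the 53 genes apart. The smallest p-values were those of MAD2L1, -0.72 (SE 0.159, adjusted p = 0.123), and ECT2, -0.59 (SE 0.137, adjusted p = 0.128). Without venetoclax replicate 2 the count was 27, and without venetoclax replicate 1 it was 5.

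**Figure D2:**
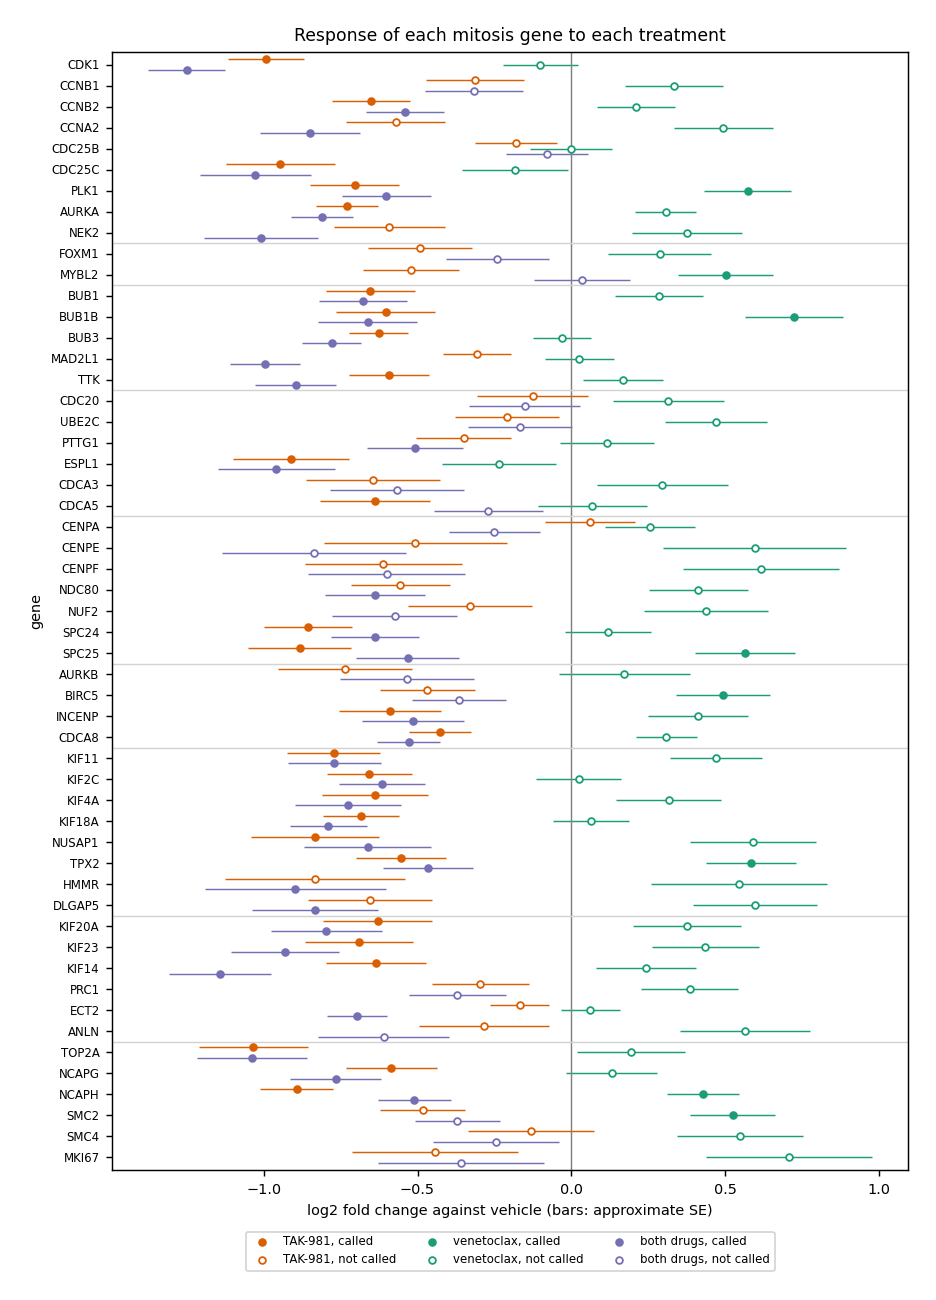
Log2 fold change against vehicle for each of the 53 genes (rows) with TAK-981, venetoclax and both drugs. Filled points passed the test and open points did not, and bars are approximate standard errors. TAK-981 lowered 27 genes and both drugs 34, and points for venetoclax lie mostly right of 0.

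**Figure D3:**
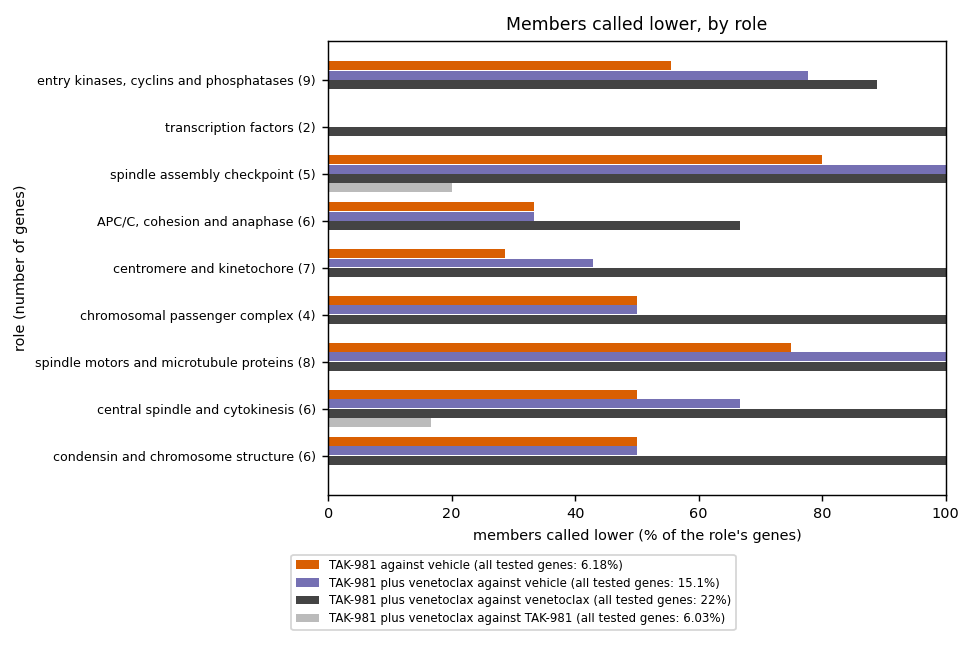
Share of the genes of each role (bars, percent of the role's genes, number in brackets) called lower in 4 comparisons. Spindle motor and checkpoint genes have the highest shares against vehicle, 8 of 8 and 5 of 5 with both drugs. In the fit over 8 libraries, the 2 transcription factors have no lower call against vehicle and are lower in 2 of 2 from venetoclax to both drugs.

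Among the genes that start mitosis, TAK-981 lowered 5 of 9 and both drugs 7 of 9. CDK1 (chromosome 10, 60778331 to 60794852, hg38), the kinase that drives entry, stood at 213 and 217 CPM with vehicle, 116 and 100.3 with TAK-981, 194 and 206 with venetoclax and 100.1 and 80.4 with both drugs. Both groups given TAK-981 lay below both other groups with no overlap. The log2 fold change was -0.99 (SE 0.124, adjusted p = 0.00161) with TAK-981 and -1.25 (SE 0.125, adjusted p = 0.000245) with both drugs, so CDK1 fell by 49.7% in the first and fell by 57.9% in the second. CCNB1, the cyclin partner of CDK1, stood at 159 and 165 CPM with vehicle, 143 and 118 with TAK-981, 178 and 229.7 with venetoclax and 145 and 115 with both drugs. Both groups given TAK-981 were below vehicle, by a smaller amount than for CDK1. In the fit over 8 libraries its difference from vehicle, -0.31 (SE 0.158, adjusted p = 0.248) with TAK-981, did not pass the test. There CCNB1 was lowered only against venetoclax, -0.65 (SE 0.159, adjusted p = 0.0116). With the libraries of the 2 groups alone CCNB1 was lower with TAK-981 (adjusted p = 0.00818) and with both drugs (adjusted p = 0.0348). In such a fit its fall from venetoclax to both drugs did not pass (adjusted p = 0.0618). CCNB2, another B-type cyclin, fell with TAK-981 (-0.65) and with both drugs (-0.54), and the A-type cyclin CCNA2 with both drugs (-0.85, against -0.57 with TAK-981, which did not pass). The difference between CDK1 and CCNB1, partners of a single enzyme, was not tested.

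AURKA, a kinase of centrosome maturation, stood at 80.9 and 88.4 CPM with vehicle, 52.6 and 49.5 with TAK-981, 100.8 and 108 with venetoclax and 49.3 and 47 with both drugs, with narrow spread in each group. It fell with TAK-981, -0.73 (SE 0.0999, adjusted p = 0.00228), and with both drugs, -0.81 (SE 0.1006, adjusted p = 0.000663). PLK1, a kinase that acts from entry to cytokinesis, stood at 81.7 and 78.7 CPM with vehicle, 50.8 and 47.6 with TAK-981, 119 and 119.5 with venetoclax and 61.45 and 43.9 with both drugs. Venetoclax lay above vehicle (0.57, SE 0.142, adjusted p = 0.0226) and both groups given TAK-981 below it (-0.70 and -0.60), and these 2 groups overlapped. CDC25C, a phosphatase that removes the inhibitory phosphates of CDK1, is a low gene at 13.9 and 14.2 CPM with vehicle, 8.08 and 6.47 with TAK-981, 13.6 and 11.3 with venetoclax and 7.32 and 6.41 with both drugs. It fell by 48.1% with TAK-981 and fell by 50.9% with both drugs (adjusted p = 0.00954 and adjusted p = 0.00331). CDC25B, a phosphatase of the same family, stood at 56.1 and 48.1 CPM with vehicle, 47.3 and 44.6 with TAK-981, 48.5 and 55.45 with venetoclax and 53.9 and 44.6 with both drugs, and was called in no comparison: both TAK-981 libraries were below both vehicle libraries, and the other groups overlapped vehicle. NEK2, a kinase of centrosome separation, fell with both drugs (-1.01, SE 0.1845, adjusted p = 0.0042), and its TAK-981 value of -0.59 did not pass.

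The 2 transcription factors of this program were not called against vehicle in the groups given TAK-981 in the fit over 8 libraries, and both fell from venetoclax to both drugs (FOXM1 -0.53, MYBL2 -0.47). With the vehicle and TAK-981 libraries alone both were called lower with TAK-981 (adjusted p = 0.000104 for FOXM1 and adjusted p = 2.27e-05 for MYBL2). With the venetoclax and both-drug libraries alone the fall of FOXM1 between these groups did not pass (adjusted p = 0.127). FOXM1 stood at 139 and 118 CPM with vehicle, 92.3 and 90.5 with TAK-981, 136 and 177 with venetoclax and 124.5 and 92.6 with both drugs. Against vehicle its values were -0.49 with TAK-981 and -0.24 with both drugs, and neither passed. MYBL2, the MYB protein that joins MuvB, stood at 114 and 101.0 CPM with vehicle, 75.1 and 74.5 with TAK-981, 129 and 175 with venetoclax and 121 and 98.6 with both drugs. With TAK-981 both libraries were below vehicle (-0.52, SE 0.156, adjusted p = 0.0614, not called), and with both drugs they surrounded the vehicle level (0.03). MYBL2 rose with venetoclax, 0.50 (SE 0.1545, adjusted p = 0.0484). The value from TAK-981 to both drugs, 0.56 (SE 0.156, adjusted p = 0.0593), did not pass here and was called by DESeq2.

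All 5 spindle checkpoint genes fell with both drugs, and 4 of 5 with TAK-981. BUB1, a checkpoint kinase, stood at 259.8 and 258 CPM with vehicle, 176 and 153 with TAK-981, 348 and 282.5 with venetoclax and 180.0 and 143 with both drugs, and fell by 36.4% with TAK-981 and fell by 37.5% with both drugs. BUB1B, which codes for BUBR1, an inhibitor of CDC20, stood at 142.5 and 135 CPM with vehicle, 97.6 and 85 with TAK-981, 267.5 and 191 with venetoclax and 95.2 and 79.96 with both drugs. Its venetoclax replicates were far apart but both above vehicle (0.72, SE 0.16, adjusted p = 0.0153), and from venetoclax to both drugs it fell by 61.7% (adjusted p = 0.000549). BUB3, the partner of BUB1 and BUB1B, stood at 271 and 281 CPM with vehicle, 183 and 175 with TAK-981, 275 and 265.5 with venetoclax and 169 and 153 with both drugs. It was flat with venetoclax (-0.03, not called) and fell with TAK-981, -0.63 (SE 0.095, adjusted p = 0.00385), and with both drugs, -0.78 (SE 0.0954, adjusted p = 0.000641). TTK, the kinase known as MPS1, stood at 133 and 139 CPM with vehicle, 96.6 and 83.5 with TAK-981, 167 and 139 with venetoclax and 79.3 and 66.6 with both drugs, and fell with TAK-981 (-0.59) and both drugs (-0.90).

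MAD2L1 had another pattern in the fit over 8 libraries. This gene (chromosome 4, hg38), which codes for the MAD2 protein that binds CDC20, stood at 129 and 145 CPM with vehicle, 114 and 107 with TAK-981, 139 and 139 with venetoclax and 74.5 and 62.3 with both drugs. The libraries with both drugs lay below all 6 others, and vehicle and venetoclax overlapped. With TAK-981 alone its value of -0.31 (SE 0.112, adjusted p = 0.112) did not pass in that fit. It was called lower when only the libraries of vehicle and TAK-981, the 2 groups alone, were fitted (adjusted p = 0.00371). In the fit over 8 libraries the value with both drugs was -0.996 (SE 0.114, adjusted p = 0.000462). From TAK-981 to both drugs it was -0.69 (SE 0.113, adjusted p = 0.00885). The last call was lost without any 1 of 3 libraries, TAK-981 replicate 1 or 2 or replicate 2 of both drugs, and with every library left out in turn the value lay between -0.83 and -0.57.

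Of the genes of the APC/C, cohesion and anaphase, 2 of 6 fell with TAK-981 and 2 of 6 with both drugs. CDC20, the activator of the APC/C, stood at 67.75 and 73 CPM with vehicle, 67.5 and 61.5 with TAK-981, 72 and 102 with venetoclax and 72.2 and 54.1 with both drugs. Both TAK-981 libraries lay just below vehicle, and the venetoclax and both-drug libraries were spread across it. Its values of -0.13 with TAK-981 and -0.15 with both drugs did not pass, and it was called in no comparison. UBE2C, the APC/C's ubiquitin-conjugating enzyme, likewise had -0.21 and -0.17, neither called. ESPL1, the protease that cuts cohesin, fell with TAK-981 (-0.91, SE 0.188, adjusted p = 0.0152) and both drugs (-0.96, SE 0.19, adjusted p = 0.00601). Its inhibitor PTTG1, securin, fell with both drugs (-0.51), at -0.35 with TAK-981, not called. PTTG1 has near-identical copies in the genome, so its reads may be shared or dropped. CDCA5, sororin, which protects cohesion, fell with TAK-981 (-0.64, SE 0.178, adjusted p = 0.0489) and stood at -0.27 with both drugs, not called. With the libraries of the 2 groups alone CDCA5 was also lower with both drugs (adjusted p = 0.0251).

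At the centromere and kinetochore, 2 of 7 genes fell with TAK-981 and 3 of 7 with both drugs. CENPA, the centromeric histone, stood at 45.25 and 42.3 CPM with vehicle, 47.3 and 44.1 with TAK-981, 48.4 and 55.95 with venetoclax and 42 and 31.4 with both drugs. TAK-981 and vehicle overlapped. Of the 53 genes CENPA was the only one with a positive value for TAK-981, 0.06, not called. In the fit over 8 libraries it was lower only against venetoclax, -0.51 (SE 0.149, adjusted p = 0.0248). With the venetoclax and both-drug libraries alone that fall did not pass (adjusted p = 0.122). The 4 genes of the NDC80 complex, which grips microtubules, did not all pass. SPC24 stood at 51.9 and 43.45 CPM with vehicle, 29.1 and 23.5 with TAK-981, 50.7 and 52.7 with venetoclax and 32.5 and 28.7 with both drugs, and SPC25 at 29.5 and 31.25 CPM with vehicle, 17.5 and 15.35 with TAK-981, 49.7 and 40.3 with venetoclax and 23.8 and 18 with both drugs. Both fell with TAK-981, where SPC24 fell by 44.75% and SPC25 fell by 45.8%, and with both drugs, where SPC24 fell by 35.7% and SPC25 fell by 30.9%. NDC80 stood at 96 and 90.5 CPM with vehicle, 66.3 and 60.6 with TAK-981, 146 and 103 with venetoclax and 64.9 and 54.8 with both drugs, with -0.56 for TAK-981, not called, and -0.64 (SE 0.162, adjusted p = 0.018) for both drugs, and NUF2 had -0.33 and -0.57, neither called. With the libraries of the 2 groups alone NDC80 was also lower with TAK-981, and NUF2 was lower with TAK-981 and with both drugs. The kinetochore motor CENPE and the large kinetochore protein CENPF had wide venetoclax replicates, 618 and 308 and 1143 and 656 CPM. Neither passed against vehicle in the fit over 8 libraries, and with the libraries of the 2 groups alone both were lower with both drugs.

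In the chromosomal passenger complex, which corrects wrong attachments, TAK-981 lowered 2 of 4 genes, INCENP (-0.59) and CDCA8, and both drugs the same 2. CDCA8, borealin, stood at 80.8 and 87.55 CPM with vehicle, 63 and 62.2 with TAK-981, 103 and 106 with venetoclax and 62.05 and 54.5 with both drugs, and fell by 25.6% with TAK-981 and fell by 30.7% with both drugs. Its kinase AURKB stood at 18.7 and 14.3 CPM with vehicle, 10.1 and 9.68 with TAK-981, 17.4 and 19.7 with venetoclax and 13.6 and 8.88 with both drugs. The vehicle replicates differed by 0.39 log2 units, the widest gap of the 53 genes in that group, and -0.74 with TAK-981 did not pass. BIRC5, survivin, stood at 99.2 and 94 CPM with vehicle, 75.2 and 64.4 with TAK-981, 144 and 128 with venetoclax and 86.9 and 62.7 with both drugs. It rose with venetoclax, 0.49 (SE 0.153, adjusted p = 0.0495), and was not called against vehicle in either group given TAK-981.

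Of the spindle motors and microtubule proteins, 6 of 8 fell with TAK-981 and 8 of 8 with both drugs. KIF11, the motor that pushes spindle poles apart, stood at 269.7 and 272 CPM with vehicle, 169 and 148 with TAK-981, 421 and 329 with venetoclax and 177 and 140.3 with both drugs. It fell by 41.5% with TAK-981 and fell by 41.4% with both drugs, and its venetoclax value of 0.47 did not pass. KIF18A, which limits chromosome movement at the spindle equator, stood at 98 and 99.2 CPM with vehicle, 67.7 and 55.1 with TAK-981, 111 and 95.1 with venetoclax and 58.1 and 55.9 with both drugs, with venetoclax overlapping vehicle (0.06, not called). It fell with TAK-981, -0.68 (SE 0.124, adjusted p = 0.00851), and with both drugs, -0.79 (SE 0.1245, adjusted p = 0.00209). TPX2, which activates AURKA on the spindle, stood at 283 and 296 CPM with vehicle, 216 and 179 with TAK-981, 478 and 391 with venetoclax and 231 and 188 with both drugs. It rose with venetoclax, 0.58 (SE 0.146, adjusted p = 0.0233), and fell with TAK-981, -0.55 (SE 0.1465, adjusted p = 0.0408), and with both drugs, -0.47 (SE 0.1465, adjusted p = 0.0419). HMMR and DLGAP5, both spindle assembly proteins, fell with both drugs (-0.90 and -0.83), while their TAK-981 values of -0.83 and -0.65 did not pass.

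Of 6 genes of the central spindle and cytokinesis, 3 fell with TAK-981 (KIF20A, KIF23 and KIF14) and 4 with both drugs (these 3 and ECT2). KIF14, a motor of the midbody, stood at 176.5 and 172 CPM with vehicle, 121 and 104 with TAK-981, 234 and 179 with venetoclax and 90.1 and 67.7 with both drugs. It fell by 35.6% with TAK-981 and fell by 54.65% with both drugs. ECT2, the exchange factor that turns on RhoA at the division plane, stood at 132 and 126 CPM with vehicle, 118.5 and 111.5 with TAK-981, 141.5 and 128.5 with venetoclax and 82.7 and 76.8 with both drugs. As for MAD2L1, the libraries with both drugs lay below all 6 others. The same held for CDK1, AURKA, BUB3, TTK and KIF14, among others, so this order is not particular to MAD2L1 and ECT2. ECT2 had -0.17 (SE 0.0966, adjusted p = 0.309) with TAK-981, not called, -0.70 (SE 0.0977, adjusted p = 0.0012) with both drugs and -0.53 (SE 0.0978, adjusted p = 0.0137) between them. The last call was lost without any 1 of 4 libraries, TAK-981 replicate 1 or 2 or either library of both drugs. PRC1, which bundles the central spindle, and ANLN, anillin, were not called against vehicle by edgeR over 8 libraries. DESeq2 called ANLN higher with venetoclax and lower with both drugs, and with the libraries of the 2 groups alone ANLN and PRC1 were lower with both drugs.

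Of 6 genes of condensin and chromosome structure, TOP2A, NCAPG and NCAPH fell with TAK-981 and with both drugs, and TOP2A had the largest fall of the 53 with TAK-981. TOP2A, topoisomerase II alpha (chromosome 17, hg38), which untangles DNA of sister chromatids, stood at 1220 and 1189 CPM with vehicle, 659 and 518 with TAK-981, 1543 and 1212 with venetoclax and 661 and 513 with both drugs. It fell by 51.1% with TAK-981, -1.03 (SE 0.178, adjusted p = 0.00685), and fell by 51.3% with both drugs, -1.04 (SE 0.178, adjusted p = 0.0031). Venetoclax did not move it past the test (0.19). NCAPH, a condensin I subunit, stood at 118 and 108 CPM with vehicle, 60.9 and 60.4 with TAK-981, 159 and 144 with venetoclax and 87.1 and 70.9 with both drugs. Its levels were ordered from TAK-981 to both drugs, vehicle and venetoclax, with -0.89 (SE 0.119, adjusted p = 0.00203), -0.51 (SE 0.118, adjusted p = 0.012) and 0.43 (SE 0.117, adjusted p = 0.0324) against vehicle and no overlap between the groups. SMC2, shared by both condensins, stood at 396 and 392 CPM with vehicle, 299 and 265 with TAK-981, 645.5 and 488 with venetoclax and 308 and 301.5 with both drugs, rose with venetoclax, 0.52 (SE 0.137, adjusted p = 0.0275), and was not called with TAK-981 (-0.48) or both drugs (-0.37). With the libraries of the 2 groups alone SMC2 was lower with TAK-981 (adjusted p = 7.94e-05) and with both drugs (adjusted p = 0.00219). Its rise with venetoclax did not pass there (adjusted p = 0.145). SMC4, the partner of SMC2, was not called against vehicle in any group. MKI67, the Ki-67 antigen of chromosome surfaces, stood at 1250 and 1069 CPM with vehicle, 944 and 763 with TAK-981, 2447 and 1337 with venetoclax and 1051 and 758 with both drugs. The venetoclax replicates were both above vehicle and far apart, and 0.71 (SE 0.27, adjusted p = 0.0942) did not pass. In the fit over 8 libraries MKI67 was lowered only against venetoclax, -1.06 (SE 0.272, adjusted p = 0.014). With the vehicle and TAK-981 libraries alone it was also lower with TAK-981 (adjusted p = 0.0076).

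**Figure D4:**
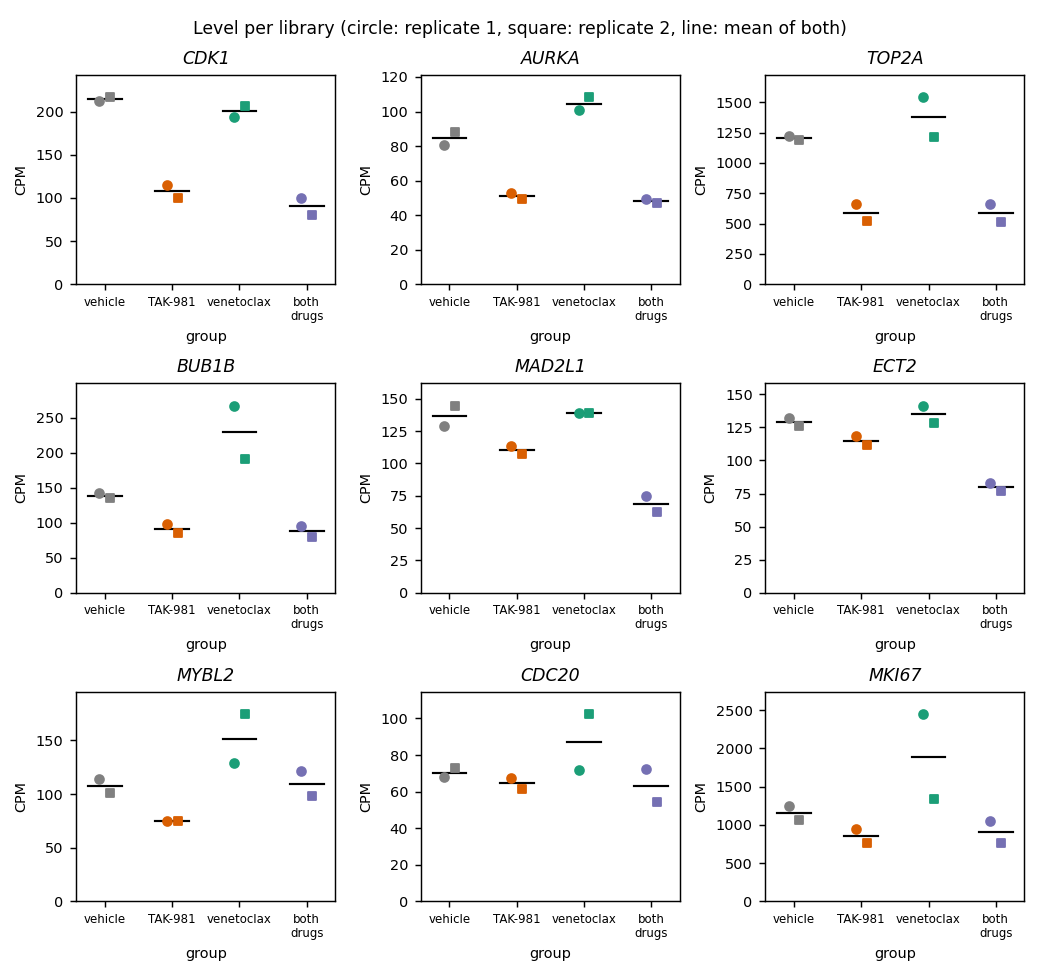
Level (CPM) of 9 of the genes in each of the 8 libraries by group. Circles are replicate 1, squares replicate 2 and lines the mean of both, on axes that start at 0. The libraries with both drugs are the lowest for MAD2L1 and ECT2 and, by a narrower margin, for CDK1 and AURKA. CDK1, AURKA and TOP2A are low in both groups given TAK-981, and MYBL2 lies near the vehicle level with both drugs.

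A wider list of mitosis genes, 113 genes outside the 53, was read beside them. TAK-981 lowered 30 and raised 2 of them, and both drugs lowered 43 and raised 5, with medians of -0.34 and -0.28. The background was 6.18% lower and 5.98% higher with TAK-981, and 15.1% lower and 12.8% higher with both drugs. Of its kinetochore genes, 10 of 30 were lower with TAK-981 and 14 of 30 with both drugs, among them the inner kinetochore genes CENPK (-0.998), CENPH (-0.91) and CENPC (-0.80) with both drugs. The 17 APC/C subunits and partners had a median of 0.03 with TAK-981 and 0.03 with both drugs. In this role both drugs lowered the APC/C inhibitor FBXO5 (-0.63) and raised CDC26 (0.73) and ANAPC15 (0.49). These calls, 1 of 17 lower and 2 of 17 higher, were not above the background and do not set the role apart. Of 13 entry regulators, 7 fell in each comparison, among them WEE1, a kinase that restrains CDK1 (-0.68 with both drugs), BORA, an activator of AURKA (-0.75), and ARPP19 (-0.61). Of 18 further spindle and cytokinesis genes, 8 fell with both drugs, with DEPDC1 -0.90, GTSE1 -0.81 and the centralspindlin subunit RACGAP1 -0.48. The condensin subunits NCAPD2 (-0.69) and NCAPD3 (-0.43) fell, and the checkpoint gene MAD1L1 rose (0.50). Of 14 MuvB and E2F regulators, 7 fell and 1 rose with both drugs, among them E2F5 (-1.12, SE 0.124, adjusted p = 0.000397) and the MuvB core genes LIN54 (-0.81) and LIN9 (-0.60).

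STAG2, a subunit of the cohesin ring that holds sister chromatids together, rose in both groups given TAK-981. It stood at 26.1 and 27.6 CPM with vehicle, 81.6 and 85 with TAK-981, 27.9 and 22.5 with venetoclax and 76 and 86.6 with both drugs. All 4 libraries given TAK-981 lay above the 4 others. The log2 fold change was 1.63 (SE 0.128, adjusted p = 0.000136) with TAK-981 and 1.60 (SE 0.1285, adjusted p = 9.3e-05) with both drugs, and it passed in both comparisons without any 1 library. Among the other 13 cohesin genes, 1 fell with TAK-981, and ESCO2 (-0.77), RAD21 (-0.64), SGO1 (-0.60) and SGO2 (-0.81) fell with both drugs.

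Genes of DNA replication, a neighbouring part of the cell cycle, were set beside the mitosis genes. Of 42 such genes, TAK-981 lowered 33 and raised 1 (background 6.18% lower and 5.98% higher). Both drugs lowered 11 and raised 2 against vehicle (background 15.1% lower and 12.8% higher). From TAK-981 to both drugs 14 of 42 rose, with a median of 0.40, while 2 of the 53 mitosis genes fell, with a median of -0.06. The background there was 2.76% higher and 6.03% lower. The difference between these lists was not tested.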

How the data were processed

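RNA-seq gene counts of 8 KG1a libraries, 2 per group, were taken as the authors deposited them: whole-number counts per gene with a length per gene. Per the submitters' processing notes, tools included Trimmomatic, STAR 2.6.0, HTSeq 0.11.1 and edgeR, with build hg38. No strand setting or annotation release was found in the labels. The sources also name different library methods (ribosomal RNA depletion and a poly(A)-primed kit). Strand not being stated, reads of overlapping genes may be mixed: 10 of the 53 genes overlap a gene with more than 10% of their own counts (CCNA2, CDC25C, FOXM1, CENPA, SPC24, KIF4A, KIF18A, KIF20A, NCAPG and SMC4).

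Counts were scaled by TMM and tested in R 4.3.3 with edgeR 4.0.16 (filterByExpr by group, robust quasi-likelihood F test, two-sided, 1 fit over 8 libraries with 4 residual degrees of freedom). P-values were adjusted by Benjamini-Hochberg over 12843 genes, threshold 0.05. Adjusted p-values in the text are from this test unless a fit with the libraries of 2 groups alone is named. Standard errors are approximate, the log2 fold change divided by the root of F. CPM and RPKM were computed from the counts. DESeq2 1.42.0, no filter, other size factors, a replicate block, the 2 groups alone and leaving out each library were alternatives. The scripts were tested on simulated data. The genes and lists were chosen with earlier results of these data known. Values in every library are given for genes with the smallest p in each comparison, a fixed set of well-known genes, and genes called in no comparison.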

Additional observations from a re-analysis of the deposited data

How the results depend on the processing

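The counts of genes called depended on the test. Every gene called in the 5 two-group comparisons kept its sign in each alternative run. These runs reuse the same counts and follow genes already called, so a kept sign is not independent support for a direction. With TAK-981, 41 of 53 were called lower with no filter on low counts and 46 with the libraries of the 2 groups alone, against 27. In that smaller fit 16.4% of all genes were called lower, against 6.18% in the main fit. With venetoclax, against 8 higher, the count was 25 with no filter, 15 with DESeq2 (11.9% of all genes higher) and 0 with the 2 groups alone (0.512%). From TAK-981 to both drugs it was 6 with no filter, 8 with the 2 groups alone and 8 without both venetoclax libraries, against 2. For the interaction it was 15 with no filter and 1 with DESeq2 (1.19% of all genes lower and 1.14% higher), against 0. The cause was not tested. For runs with no filter, a replicate block or libraries left out, the share of all genes called is not given here. A change in those counts is therefore not shown to be particular to the 53 genes. With each library left out in turn, counts ran from 3 to 39 for TAK-981, 0 to 30 for venetoclax, 11 to 45 for both drugs against vehicle, 0 to 8 against TAK-981, 32 to 51 against venetoclax and 0 to 27 for the interaction. The labels do not say what a replicate number shares. Deviations of same-numbered libraries correlated at -0.041 to 0.375 over 6 pairs of groups, 4 of them over 0.1. With a replicate block, 37 were lower with TAK-981, 18 higher with venetoclax, 42 lower with both drugs, 3 called against TAK-981, 50 against venetoclax and 0 for the interaction. Of 1322 alternative values for single genes, 1137 kept their call, 185 lost it and 0 reversed. The lowest count of the 53 genes in any library was 88, and each group had 2 libraries; which of depth and library number limits the calls was not tested.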

Other observations

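Fold changes were set beside the CHR letters. The 35 genes with TTTGAA or TTCGAA in their promoter window had a median log2 fold change of -0.63 with TAK-981, with 19 called lower, and the 11 without had -0.59, with 4 called lower. With both drugs the medians were -0.64 and -0.61, with 23 of 35 and 7 of 11 called lower. From venetoclax to both drugs they were -1.01 and -0.76, with 32 of 35 and 11 of 11 called lower, and for the interaction -0.42 and -0.27. No test was made of these splits.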
